A study of Mus musculus with 6 samples.

Results

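Notch signalling genes were examined in fibro-adipogenic progenitors (FAPs), a stromal cell type of skeletal muscle that can form fibroblasts and fat cells. The set comprised the receptor genes Notch1, Notch2 and Notch3, the ligand gene Jag1 and the target genes Hes1, Hey1 and Heyl. They were picked by mouse gene symbol, and all 7 were found among the 16671 genes of the table. FAPs had been purified by FACS from the hindlimb of wild type mice (age 4 to 5 months) and were given either C1q at 100 µg/ml (3 libraries) or vehicle (3 libraries). C1q is the recognition protein of the classical complement pathway. How long the treatment lasted is not stated in the labels, nor is the origin of the replicates (the same or separate mice or cultures). The p-values therefore measure only the spread between these libraries, which may be technical. The labels' description of RNA extraction names muscle stem cells rather than FAPs. In bulk RNA, fewer cells of a type and less RNA per cell cannot be told apart.

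A Notch receptor is cleaved when a ligand of the Jagged or Delta-like family on a neighbouring cell binds it. Its intracellular part then enters the nucleus, joins the DNA-binding protein RBPJ and a Mastermind-like coactivator, and switches on genes of the Hes and Hey families, which encode transcriptional repressors. In skeletal muscle, Notch signalling is known for keeping muscle stem cells quiescent, and NOTCH3 for its role in the mural cells of blood vessels.

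The FAP surface receptor gene Pdgfra stood at 31450 to 34035 in C1q libraries and at 15908 to 24176 in vehicle libraries, in normalised read counts (reads divided by 1 size factor per library), the unit of all levels given here. Libraries held 5379209 to 38861152 reads on these genes. Vehicle replicate 3 was the shallowest, with 1 read worth 4.25 normalised counts, against 0.583 to 0.975 in the other libraries. Of 10 FAP markers 6 were called higher with C1q and 0 lower, and a fit blocked on replicate number added Col15a1 as the seventh. Of 7 measured markers of muscle stem cells and myoblasts, 5 were lower and 0 higher. Fold changes moved with transcript length across all genes. With that trend taken out, 5 FAP markers were higher and 3 of these 7 lower. The calls of Pdgfra (log2 fold change 0.37) and Col1a1 (0.45) were then lost, and Ly6a (0.67) was newly called. Over all genes tested, 19.7% were higher and 18.7% lower, or 14.6% and 18.8% with that trend removed. The 7 muscle stem cell and myoblast markers summed to 1554 to 1853 in C1q libraries and to 8976, 4525 and 2542 in vehicle replicates 1, 2 and 3.

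All 3 receptor genes and Jag1 were higher with C1q, by 1.66-fold to 2.19-fold, and none of the 3 target genes passed the test. The count was 4 of 7 genes higher and 0 lower (limma-trend on log2(value + 1), Benjamini-Hochberg adjusted p below 0.05 over all genes). Across all genes tested, 38.3% were called in either direction, 19.7% higher and 18.7% lower. In the same 4 genes every C1q library lay above every vehicle library, as in 26.8% of all genes, and groups did not overlap in either direction in 52.1%. The edgeR and DESeq2 tests likewise called 4 higher and 0 lower. At an unadjusted p below 0.05, limma-trend and edgeR had 0 lower members and DESeq2 had 1. The median log2 fold change was 1.05 over the 7 genes and 0.03 over all genes. All fold changes are C1q over vehicle. They were computed after adding 1 to each value, and those of genes with low values depend on that number. The log2 fold change of Hey1 was 1.17, against 1.26 with 0.5 added, 0.78 with 5 added and 1.15 in edgeR.

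**Figure D1:**
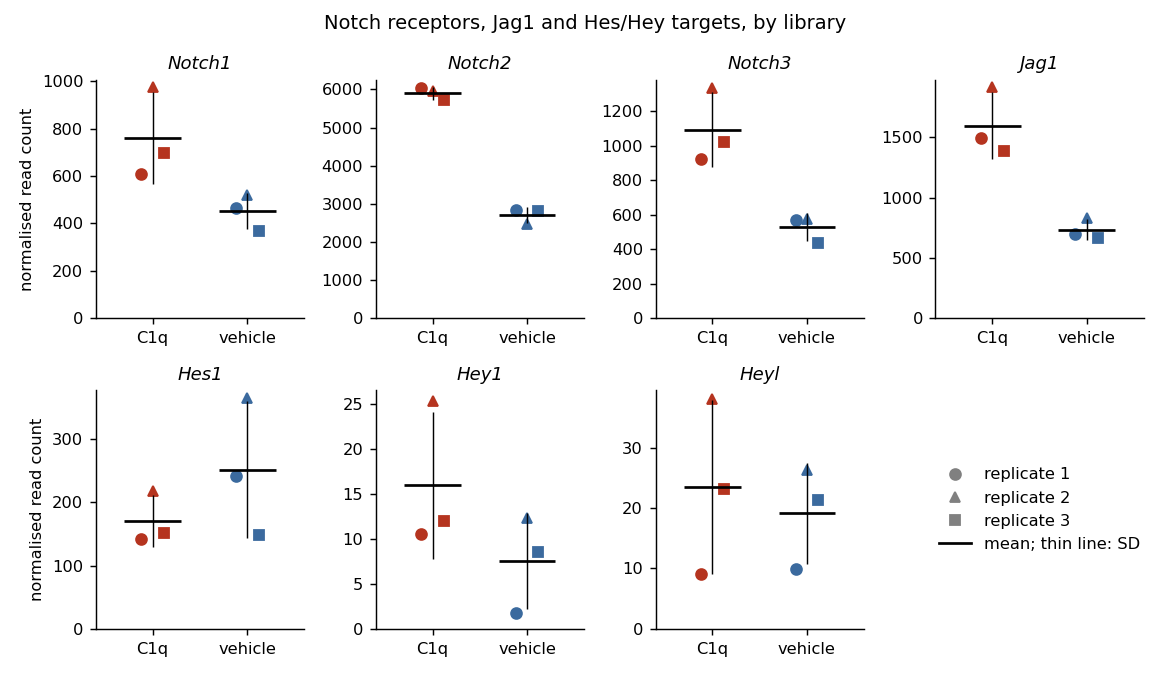
Normalised read counts of the 7 genes in each library, with C1q on the left and vehicle on the right of every panel. Symbols mark replicate numbers, thick bars the mean and thin lines the SD (n = 3). The groups are apart for Notch1, Notch2, Notch3 and Jag1 and overlap for Hes1, Hey1 and Heyl.

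Notch2 was the most abundant receptor, and its log2 fold change had the smallest SE of the 3. It read 6045, 5955 and 5715 in C1q replicates 1, 2 and 3, against 2839, 2465 and 2801 in vehicle replicates 1, 2 and 3. The groups lay far apart, and the libraries within each group lay close together. Its log2 fold change was 1.13 ± 0.07 (SE), or 2.19-fold, with a limma-trend adjusted p of 1.85e-04. The gene (Entrez gene 18129) lies on chromosome 3 from 98013538 to 98150367 in GRCm38, the build of all coordinates here.

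Notch3, the receptor best known from mural cells, read 923, 1338 and 1023 in C1q libraries, against 571, 576 and 434 in vehicle libraries. The groups did not overlap, and C1q replicate 2 was the highest of the 6. The log2 fold change was 1.05 ± 0.16 (SE), with a limma-trend adjusted p of 0.00223. Notch3 (Entrez gene 18131) lies on chromosome 17 from 32120820 to 32166896. The defining mural marker Rgs5 was at 6.72 or less in every library and at 0 in vehicle replicate 3, and the mural marker Higd1b was not analysed here. Of the 10 mural markers measured, 2 were higher and 2 lower, beside 19.7% and 18.7% of all genes. With the replicate number as a block, 3 were higher (Myh11 added, limma-trend adjusted p 0.02996). Abcc9 and Kcnj8, which encode the subunits of a potassium channel of mural cells, rose 2.67-fold and 3.83-fold, while Pdgfrb and Acta2, both also made by fibroblasts, changed by -0.51 and -0.55 on the log2 scale. The summed level of the mural list was 40895 to 45527 in C1q libraries and 54688 to 60298 in vehicle libraries. Most of that sum was Pdgfrb (21291 to 23089 with C1q, 27860 to 35956 with vehicle) and Acta2 (9276 to 10710 and 14169 to 16300). It is therefore not a measure of mural cells alone. The part of mural cells in the Notch3 result was not tested.

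Notch1 showed the smallest rise of the receptors. It read 607, 976 and 699 in C1q libraries and 466, 519 and 369.8 in vehicle libraries. The groups did not overlap, but the gap between the nearest libraries was smaller than the spread within the C1q group. The log2 fold change was 0.74 ± 0.19 (SE), with a limma-trend adjusted p of 0.0197, and 0.62 (adjusted p 0.0805) with all libraries thinned to the depth of the shallowest. Notch1 (Entrez gene 18128) lies on chromosome 2 from 26457902 to 26503822. Exons of other genes overlap it on the opposite strand (0610009E02Rik and Gm13568), as Gm17276 does for Notch3, and whether counting used strand is not stated, so their reads cannot be told apart.

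Jag1, which encodes the ligand Jagged 1, read 1489.5, 1913 and 1389 in C1q libraries, against 701, 834 and 667 in vehicle libraries. Every C1q library lay above every vehicle library, and replicate 2 was the highest of its group on both sides. The log2 fold change was 1.11 ± 0.14 (SE), or 2.16-fold, with a limma-trend adjusted p of 8.36e-04. Jag1 (Entrez gene 16449) lies on chromosome 2 from 137081451 to 137116520.

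Promoter sequences of Notch2, Notch3, Jag1 and Hey2, another Notch target gene that rose, are shown, since these genes moved together and RBPJ binds DNA at the core TGGGAA. They come from RefSeq in build GRCm38.p6, read 5′ to 3′ on the strand of the gene, and cover 250 bases before and 50 after the annotated start. Capitals mark matches to GTGGGAA, the core with the G before it, on either strand.
Hey2 (chr10:30842734-30843033, minus strand): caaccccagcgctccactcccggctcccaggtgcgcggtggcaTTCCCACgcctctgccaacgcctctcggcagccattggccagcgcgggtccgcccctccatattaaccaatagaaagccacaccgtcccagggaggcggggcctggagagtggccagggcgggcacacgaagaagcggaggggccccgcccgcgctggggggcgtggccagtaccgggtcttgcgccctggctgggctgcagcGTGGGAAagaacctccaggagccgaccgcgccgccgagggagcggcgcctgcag
Notch2 (chr3:98013288-98013587, plus strand): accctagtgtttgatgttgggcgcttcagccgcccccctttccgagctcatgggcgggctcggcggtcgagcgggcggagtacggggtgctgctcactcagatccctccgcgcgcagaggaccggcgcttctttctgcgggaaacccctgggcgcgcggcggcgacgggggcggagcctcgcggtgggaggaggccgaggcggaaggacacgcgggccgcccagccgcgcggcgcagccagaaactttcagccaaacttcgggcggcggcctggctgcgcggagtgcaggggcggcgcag
Notch3 (chr17:32166841-32167140, minus strand): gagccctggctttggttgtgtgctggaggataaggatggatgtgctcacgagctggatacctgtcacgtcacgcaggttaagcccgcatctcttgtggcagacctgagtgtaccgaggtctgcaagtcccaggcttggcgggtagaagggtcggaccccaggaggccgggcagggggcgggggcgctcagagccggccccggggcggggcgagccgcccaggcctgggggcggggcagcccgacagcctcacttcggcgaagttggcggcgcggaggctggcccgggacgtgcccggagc
Jag1 (chr2:137116471-137116770, minus strand): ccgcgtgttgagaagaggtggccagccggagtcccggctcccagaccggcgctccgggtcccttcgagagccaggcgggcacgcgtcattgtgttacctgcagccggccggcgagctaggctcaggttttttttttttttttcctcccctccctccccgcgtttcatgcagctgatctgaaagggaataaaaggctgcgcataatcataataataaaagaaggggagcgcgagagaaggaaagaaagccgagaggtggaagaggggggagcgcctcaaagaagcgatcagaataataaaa

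The Hey2 window held 2 matches to GTGGGAA, of which 1 begins 4 bases before the start on the strand of the gene and 1 lies on the other strand, 207 to 201 bases before the start, and is printed on the strand of the gene as TTCCCAC. The windows of Notch1, Notch2, Notch3 and Jag1 held 0 matches to GTGGGAA and 0 to TGGGAA on either strand, so those letters are not in these windows. Over all 32851 promoter windows of the same length, 6.38% held GTGGGAA and 25.6% held TGGGAA, which every GTGGGAA contains. The windows of Notch2 and Notch3 were 73.0% and 70.0% G and C, against 55.7% for Jag1. Promoter windows of Hes1, Hey1 and Heyl were not available and were not examined. Whether a match goes with a rise was therefore not tested.

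Long transcripts rose with C1q across the whole table, which bears on the 3 receptor genes and Jag1. The longest annotated transcripts of Notch1, Notch2 and Notch3 have 9488, 10500 and 8016 bases. Among 760 measured genes with transcripts of at least 8000 bases, 62.1% were called higher and 2.89% lower, with a median log2 fold change of 0.545. Among 3069 genes of 4000 to 6000 bases, the class of Jag1 with its 5612 bases, 34.5% were called higher and the median was 0.18. Genes below 1000 bases went the other way, with 67.6% called lower. After removal of the trend on transcript length, 14.6% of genes were called higher and 18.8% lower. Notch2 then changed by 0.54 (limma-trend adjusted p 0.00163), Notch3 by 0.57 (adjusted p 0.0302) and Jag1 by 0.82 (adjusted p 0.00473), all still called higher. Notch1 changed by 0.18 (adjusted p 0.486) and was no longer called. The cause of the length trend was not tested.

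**Figure D2:**
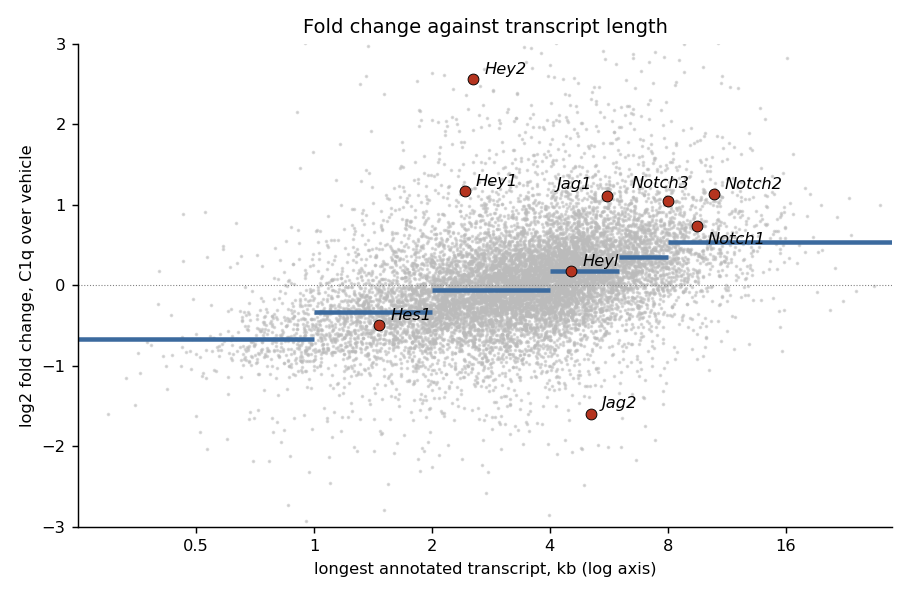
Log2 fold change (C1q over vehicle) against the length of the longest annotated transcript in kb, on a log axis, for genes with a mean normalised count of at least 20 (grey points; the few beyond 3 in either direction are not drawn). Blue bars are medians of 6 length classes, running from -0.668 below 1000 bases to 0.545 at 8000 bases and above. Red points are the 7 genes with Jag2 and Hey2. Notch2, Notch3 and Jag1 lie above the median of their length class, and Jag2 lies far below it.

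Hes1, which encodes a repressor that is a direct Notch target in many tissues, did not pass the test. It read 142, 218 and 151 in C1q libraries and 241, 365 and 149 in vehicle libraries. The groups overlapped, with vehicle replicate 3 at the level of 2 C1q libraries and replicate 2 the highest on both sides. The log2 fold change was -0.49 ± 0.32 (SE), with a 95% interval from -1.24 to 0.26 and a limma-trend adjusted p of 0.267. Vehicle replicate 3 held 35 Hes1 reads, and without it the change was -0.82 with a limma-trend adjusted p of 0.0319. Without vehicle replicate 2, the highest library, the change was -0.18 with an adjusted p of 0.647. Short transcripts were often lower, since 47.3% of genes of 1000 to 2000 bases were called lower, and Hes1, at 1468 bases, changed by -0.18 with the length trend removed. The gene (Entrez gene 15205) lies on chromosome 16 from 30065357 to 30067796.

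Hey1 and Heyl, whose products are related repressors, were close to the detection limit. Hey1 (Entrez gene 15213, chromosome 3, 8663359 to 8667038) read 10.6, 25.3 and 11.95 in C1q libraries and 1.75, 12.4 and 8.50 in vehicle libraries. These values rest on 15, 26 and 16 reads with C1q and on 3, 16 and 2 reads with vehicle. The groups overlapped, and the log2 fold change of 1.17 had a 95% interval from -0.36 to 2.69 (limma-trend adjusted p 0.201). Heyl (Entrez gene 56198, chromosome 4, 123233556 to 123249870) read 9.16, 38.0 and 23.2 in C1q libraries and 9.91, 26.3 and 21.3 in vehicle libraries. Its log2 fold change of 0.18 had a 95% interval from -1.14 to 1.498 (limma-trend adjusted p 0.832), which spans changes in both directions. Replicate 2 held the highest Hes1, Hey1 and Heyl value in each group.

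The summed level of endothelial genes was also highest in replicate 2 of each group, but most of that sum was Tek. Tek read 908, 1175 and 480 in C1q libraries and 678, 963 and 506 in vehicle libraries. Only Tek, Pecam1 and Cldn5 were highest in replicate 2 of both groups, while Flt1 and Emcn were highest in replicate 3 of both. Within the vehicle group alone, Cdh5, Tie1 and Esam were also highest in replicate 2, and Kdr and Vwf in replicate 3. In vehicle libraries Cdh5 read 26.8, 160 and 29.8, Tie1 0, 42.5 and 4.25, and Esam 4.66, 17.0 and 4.25. The endothelial marker Pecam1 read 4.93, 13.6 and 5.98 in C1q libraries and 0.583, 94.97 and 0 in vehicle libraries. Of 10 endothelial markers measured, limma-trend, edgeR and DESeq2 each called 0, and 0 had an unadjusted limma-trend p below 0.05. With the replicate number as a block, 1 of the 10 was called lower, the endothelial sialomucin gene Emcn (-1.59, limma-trend adjusted p 0.0253, against 0.207 without the block). Emcn read 1.41, 5.85 and 14.2 in C1q libraries and 4.66, 33.2 and 34.0 in vehicle libraries, lower with C1q in all 3 pairs of the same number. The 10 endothelial markers summed to 800 to 1405 in C1q libraries and 803 to 1464 in vehicle libraries. Cldn5 was at 0 in C1q replicate 1 and vehicle replicate 3. The part of endothelial cells in the Hes1, Hey1 and Heyl values was not tested.

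**Figure D3:**
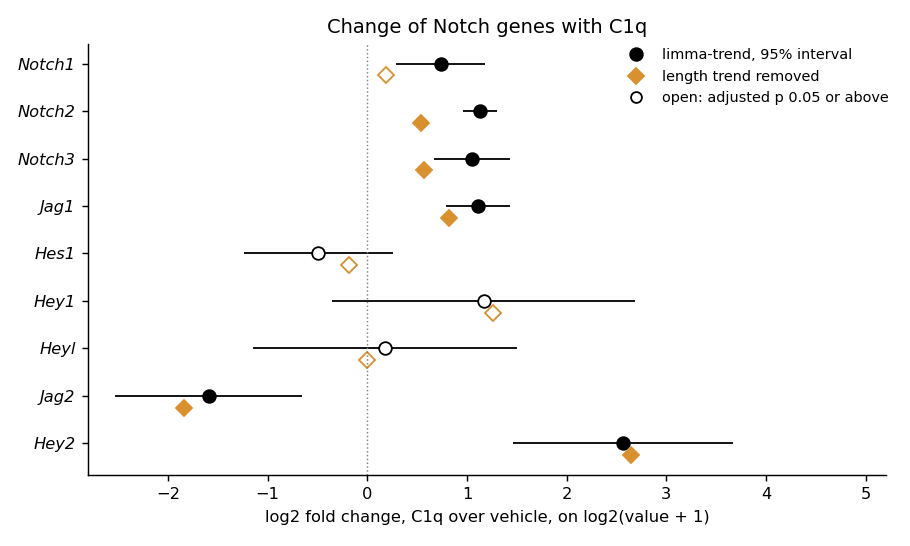
Log2 fold changes (C1q over vehicle) of the 7 genes, Jag2 and Hey2. Circles are limma-trend estimates with 95% intervals, and diamonds are the same genes with the trend on transcript length removed. Filled symbols have an adjusted p below 0.05. The diamond of Notch1 is open at 0.18, and the intervals of Hes1, Hey1 and Heyl cross 0.

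Levels of different genes were compared per kb of the longest annotated transcript. In C1q libraries the order was Notch2 (562 ± 16.2 normalised counts per kb, SD, n = 3), Jag1 (285 ± 49.6), Notch3 (137 ± 27.0), Hes1 (116 ± 28.3), Notch1 (80.1 ± 20.2), Hey1 (6.58 ± 3.37) and Heyl (5.17 ± 3.18). In vehicle libraries it was Notch2 (257 ± 19.6), Hes1 (171 ± 74.0), Jag1 (131 ± 15.7), Notch3 (65.7 ± 10.1), Notch1 (47.6 ± 7.96), Heyl (4.22 ± 1.85) and Hey1 (3.11 ± 2.22). With C1q the values of Notch3 overlapped those of Hes1, and those of Hes1 overlapped those of Notch1. With vehicle the values of Hes1 overlapped those of Notch2 and of Jag1, and those of Notch3 overlapped those of Notch1. Hey1 and Heyl overlapped in both groups.

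The 3 receptors summed to 755, 837 and 746 normalised counts per kb in C1q libraries, against 391, 361 and 359.9 in vehicle libraries. The share of Notch2 in that sum was 72.4% ± 4.29 with C1q and 69.4% ± 4.58 with vehicle (SD, n = 3), a difference within the spread (exact two-sided permutation p = 0.5). The log2 ratio of Hes1 to the receptor sum was -2.96, -2.49 and -2.86 in C1q libraries and -1.25, -0.54 and -1.83 in vehicle libraries. The groups did not overlap for that ratio or for the receptor sum (exact permutation test, two-sided, p = 0.1 for both). That is the smallest p which 3 against 3 libraries allow, and it is 0.157 adjusted over 11 library measures. Hes1 has a short transcript and the receptors have long ones, and the ratio was not corrected for the length trend. With that trend removed the log2 fold changes were -0.18 for Hes1 and 0.54 for Notch2, against -0.49 and 1.13 with it.

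The other ligand of the Jagged family moved against Jag1. Jag2 (Entrez gene 16450, chromosome 12, 112907803 to 112929812) read 21.1, 38.0 and 31.4 in C1q libraries, against 163, 76.4 and 59.5 in vehicle libraries. It was 3.02-fold lower with C1q (log2 fold change -1.59, limma-trend adjusted p 0.0166), a call lost without C1q replicate 1 (-1.36, adjusted p 0.0610). The log2 ratio of Jag1 to Jag2 per kb was 6.00, 5.52 and 5.33 in C1q libraries and 1.97, 3.31 and 3.35 in vehicle libraries, without overlap (exact two-sided permutation p = 0.1, or 0.157 adjusted over 11 measures). The Delta-like ligands gave low values. Dll1 averaged 56.4 ± 6.18 with C1q and 49.7 ± 10.2 with vehicle (adjusted p 0.536), Dll4 was at 14.7 or less in every library, and the receptor gene Notch4 averaged 49.0 ± 11.7 and 40.5 ± 30.2 in the C1q and vehicle groups (adjusted p 0.484).

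Of 7 further measured genes listed as targets, 1 rose (Hey2) and 3 fell (Hes6, Cdkn1a and Myc), beside 19.7% and 18.7% of all genes. With the length trend removed 1 was higher and 2 lower, beside 14.6% and 18.8% of all genes. Whether Notch drives the listed genes, Hes6 among them, in these cells was not tested. The Myc call (-0.57, limma-trend adjusted p 0.0331) was lost without C1q replicate 1, C1q replicate 3 or vehicle replicate 2 (adjusted p 0.0632 to 0.0925), with the length trend removed (-0.45, adjusted p 0.0688) and after thinning (adjusted p 0.0711). Hey2, the third Hey repressor gene (Entrez gene 15214, chromosome 10, 30832359 to 30842783), read 23.3, 32.2 and 31.4 in C1q libraries, against 1.75, 7.72 and 4.25 in vehicle libraries. The C1q values rest on 33, 33 and 42 reads, and the vehicle values on 3, 10 and 1. The log2 fold change was 2.56 (limma-trend adjusted p 0.00450), and 2.64 with the length trend removed. With every library thinned to 5379209 reads it was 2.74, with an adjusted p of 0.0919. Nrarp, a feedback inhibitor that Notch induces in many cells, was at 7.72 or less in every library.

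Hes6, which encodes a Hes relative found in differentiating myoblasts, read 349, 442 and 362 in C1q libraries and 987, 787 and 539.9 in vehicle libraries (log2 fold change -0.97, limma-trend adjusted p 0.00940). Cdkn1a, which encodes the cell cycle inhibitor p21, read 3354, 3340.0 and 2516 in C1q libraries and 13363, 7669 and 5016 in vehicle libraries (-1.40, adjusted p 0.0113). In Jag2, Hes6 and Cdkn1a alike, vehicle replicate 1 was the highest library and vehicle replicate 3 the lowest of the vehicle group. The myogenic genes Myog and Mymk stood in that same order, at 438, 528 and 498 (Myog) and 781, 891 and 835 (Mymk) in C1q libraries and at 2356, 1269 and 718 (Myog) and 4401, 2245 and 1152 (Mymk) in vehicle libraries. Myod1 and Cdh15 had that order too, but the muscle markers Myf5 and Chodl did not. In vehicle libraries Myf5 read 4.66, 11.6 and 17.0 and Chodl 8.16, 10.8 and 0, both on few reads. The part of muscle-lineage cells in the Jag2, Hes6 and Cdkn1a results was not tested. Pax7, the defining marker of muscle stem cells, was at 7.58 or less in every library.

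**Figure D4:**
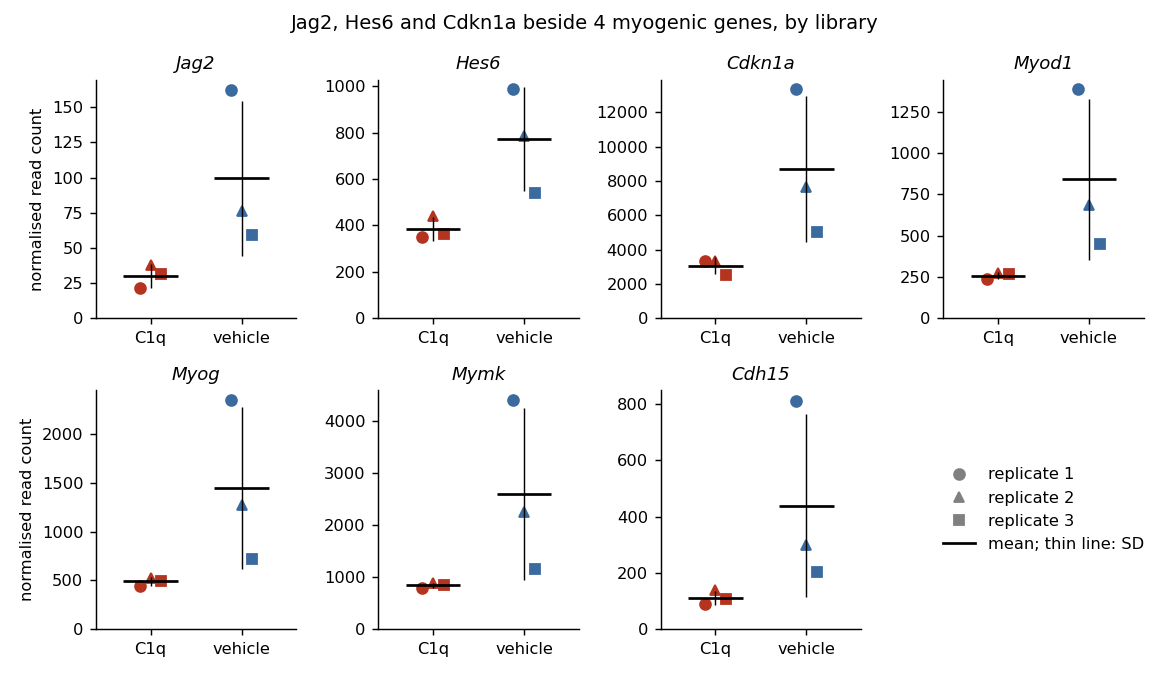
Normalised read counts of Jag2, Hes6 and Cdkn1a and of the myogenic genes Myod1, Myog, Mymk and Cdh15 in each library, with C1q on the left and vehicle on the right. Symbols mark replicate numbers, thick bars the mean and thin lines the SD (n = 3). In every panel vehicle replicate 1 is the highest library and the C1q libraries lie close together below the vehicle libraries. The other muscle markers are not drawn.

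The remaining pathway was described from a list of 75 further genes, 73 of them measured. Of these, 25 were called higher and 11 lower, beside 19.7% and 18.7% of all genes. With the length trend removed 14 were called higher and 17 lower, beside 14.6% and 18.8% of all genes. Of the 25, the same 14 genes stayed higher, while Aak1 and Kdm5a, both with long transcripts, were called lower. Of the 11 lower genes 8 stayed lower. Leaving out C1q replicate 1, C1q replicate 3 or vehicle replicate 2 brought the lower count to 6, 6 and 7, in that order. Poglut1, Mib2, Dtx3, Dtx3l and Kdm5a among the higher genes, and Jag2, Rfng, Ncstn, Kat2a, Hdac2 and Myc among the lower ones, each lost their call without at least 1 library. The median log2 fold change was 0.15 over the 73 genes, against 0.03 over all genes.

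Genes that act on the receptor protein were the first of these groups. Pofut1, whose product adds the O-fucose that Notch receptors need, averaged 3382 ± 292 with C1q and 1882 ± 86.6 with vehicle (SD, n = 3; log2 fold change 0.84, limma-trend adjusted p 3.59e-04). Galnt11, which encodes another Notch glycosyltransferase, rose by 0.67 on the log2 scale. Rfng, a Fringe glycosyltransferase gene, was called lower (-0.25), but not without any 1 of the 6 libraries (adjusted p 0.0551 to 0.146). Adam10, the protease gene for the first ligand-induced cut, averaged 2643 ± 60.1 with C1q and 1743 ± 286 with vehicle (0.61, adjusted p 0.00536). The gamma-secretase genes, for the second cut, moved both ways, as Ncstn and Psenen were lower (-0.26 and -0.73) and Aph1b was higher (0.52). The Aph1b call was lost with the length trend removed (0.27, adjusted p 0.0967) and after thinning (adjusted p 0.0649). The Ncstn call was lost without C1q replicate 2 (adjusted p 0.0502) or C1q replicate 3 (adjusted p 0.0751). Psenen, with a short transcript of 708 bases, changed by -0.06 with the length trend removed and was not called. Reads of Aph1b are uncertain, since Aph1c is a near-identical copy.

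Of 14 genes for ubiquitylation and endocytosis of ligands and receptors, 7 were higher and 1 was lower, beside 19.7% and 18.7% of all genes. With the length trend removed 4 were higher and 4 lower, beside 14.6% and 18.8% of all genes. Mib1, which encodes the ubiquitin ligase that makes Jagged and Delta-like ligands active, averaged 967 ± 124 with C1q and 387 ± 54.1 with vehicle (log2 fold change 1.32, limma-trend adjusted p 4.61e-04, and 0.74 with the length trend removed). Itch and Numb, whose products restrain the receptor, rose by 0.59 and 0.55, and Dtx2, a Deltex gene, fell by 0.49 on the log2 scale. The non-canonical ligand gene Dlk1, imprinted and known as an inhibitor of fat cell formation, read 2423, 2515 and 2288 in C1q libraries and 959, 1794 and 820.5 in vehicle libraries (1.10, adjusted p 0.0126). Cntn1, another such ligand, was not called (adjusted p 0.298), but it was with the replicate number as a block (adjusted p 0.00172). Rfng had the opposite outcome, with an adjusted p of 0.0589 under the block.

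In the nucleus, Rbpj itself was not called (log2 fold change 0.11, limma-trend adjusted p 0.461). The coactivator gene Maml2 averaged 2506 ± 125 with C1q and 1237 ± 79.1 with vehicle (1.019, adjusted p 1.96e-04, and 0.65 with the length trend removed), while Maml3 was not called (0.10, and lower at -0.39 with the length trend removed). Maml1 was called higher (0.30), a call lost with the length trend removed (0.01, adjusted p 0.928) and after thinning (adjusted p 0.0544). The acetyltransferase genes Ep300, Kat2b and Crebbp rose by 0.79, 0.60 and 0.46, and Kat2a was called lower (-0.22), a call lost without any 1 library other than vehicle replicate 1 (adjusted p 0.0502 to 0.118). Exons on the opposite strand overlap Psenen, Ncstn, Numb, Galnt11, Dtx3l, Spen, Ncor1, Maml1, Tle2 and Cdkn1a, so part of their reads may belong to other genes. Of the 4 acetyltransferase genes, Kat2b and Kat2a kept their calls once the length trend was removed. Of 17 corepressor genes 6 were higher and 2 lower, beside 19.7% and 18.7% of all genes. With the length trend removed the balance was the other way, with 2 higher and 5 lower, beside 14.6% and 18.8% of all genes. L3mbtl3, whose product binds RBPJ, averaged 571 ± 12.4 with C1q and 305 ± 32.7 with vehicle (0.91, adjusted p 5.34e-04). Tle5 was lower, at 8871 ± 253 with C1q and 13018 ± 117 with vehicle (-0.55, limma-trend adjusted p 7.84e-04). It stayed lower with the length trend removed (-0.41, adjusted p 0.00420). The corepressor genes Ncor1 and Spen have long transcripts and were no longer called with the length trend removed (-0.10 and -0.04).

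**Figure D5:**
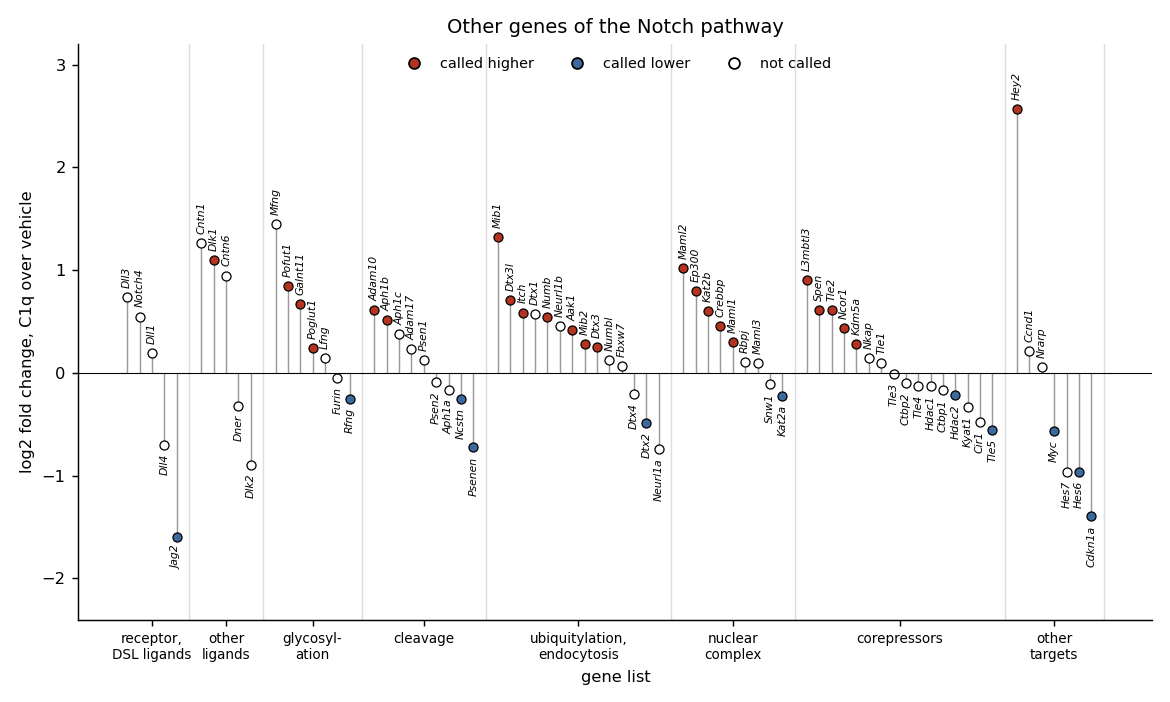
Log2 fold changes (C1q over vehicle) of 72 other pathway genes, grouped by role and sorted within each group. Red points were called higher (24), blue points lower (11), and open points were not called. Of all genes, 19.7% were called higher and 18.7% lower. Hey2 (2.56) and Mib1 (1.32) are the highest of the called genes, and Jag2 (-1.59) is the lowest.

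The genes most like each member across the 6 libraries were found by Pearson correlation on the log2 scale, as a description only; 11541 genes with mean values of 50 or more were compared. Kirrel, Fmn1 and Rock2 were most like Notch2 (r of 0.999 or more), and 11.2% of the genes compared had an r above 0.95 with it. Dnmt3a, Retsat and Slc5a7 were most like Notch1, Stim2, Atf1 and Slf2 most like Notch3, and Oxsm, Smarca1 and Mon1b most like Jag1. For Hes1 they were Fntb, Itga6 and Egr1, with 0.277% of genes above 0.95. Hey1 had H2-T22, Lyz2 and Zscan25, and Heyl had Sim2, Apol9b and Irf7, but both rest on few reads. All 6 libraries enter each r, so treatment and library differences are mixed in it.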

How the data were processed

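RNA of sorted FAPs was sequenced from 10 ng of total RNA per library with a low-input SMART-Seq kit, per the labels. The deposited values are a normalised signal, which the file headers call featureCounts counts. The submitters' processing notes name the tools DESeq2, featureCounts, HISAT2 and Trimmomatic and the build mm10. Neither the gene annotation nor the use of strand is given in the sources used here. Whole reads were recovered from the value of 1 read per library, with 100% of values whole within 0.001 reads. A count test on them (edgeR 4.0.16 with TMM scaling) called 3368 genes higher and 3513 lower. As the main test, limma-trend (R 4.3.3, limma 3.58.1) was run on log2(value + 1) with Benjamini-Hochberg adjustment over all 16671 genes, which called 3277 higher and 3112 lower. It had been laid down for the case that the table held normalised values.

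Symbols and coordinates came from RefSeq (GRCm38.p6, 16077 IDs matched) and transcript lengths from GENCODE vM21 (14934 IDs). The length trend was a loess per library (span 0.5, genes with mean values of 20 or more). Same-numbered libraries correlated at 0.123, 0.175 and 0.132 in their deviations from group means, all above 0.1, so the numbers may pair the libraries, though the labels name no shared batch. The main test and the permutation tests have no block, and a fit with the replicate number as a block was an alternative. Replicates differed beyond sampling noise (chi-square per degree of freedom 16.5 to 40.3). Members and lists were chosen with earlier results of these data known. All members, the called pathway genes and up to 4 genes of lowest p per pathway list could be named (1 gene counted among the pathway genes is not reported here), and Rbpj, Maml3, Dll4, Nrarp and the marker genes were named beyond that rule after their values were seen. The procedures were tested on simulated data, and DESeq2 1.42.0 served as an alternative.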

Additional observations from a re-analysis of the deposited data

How the results depend on the processing

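Notch2, Notch3 and Jag1 kept their direction and their call under all 20 alternatives tried. Notch1 lost its call with libraries thinned to equal depth (log2 fold change 0.62) and with the length trend removed (0.18, without and with the replicate block). The block alone changed no call among the 7 genes (all genes: 3548 higher, 3285 lower). Leaving out 1 library at a time gave 0 to 1 members called lower, Hes1 at -0.82 to -0.18, Heyl at -0.26 to 0.71, Notch4 at -0.0934 (without vehicle replicate 3) to 1.12 and 6 to 13 other pathway genes called lower. Heyl was -1.14 after thinning and -0.0055 with the length trend removed, with or without the block. With the length trend removed 2183 genes were called higher, and of the other pathway genes 14 were higher and 17 lower (18 lower with the block). Aak1 (-0.39), Crebbp (-0.15), Spen (-0.0401), Ncor1 (-0.10) and Kdm5a (-0.33) changed sign there, in both fits. Hes1 was called lower only without vehicle replicate 3, and the lower pathway count fell to 6 without C1q replicate 1 or 3. The cause of these changes was not tested. The alternatives for genes outside the 7 were added after seeing the data. Depth limits genes such as Hey1, Heyl and Hey2, of which vehicle replicate 3 held 2, 5 and 1 reads.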
